A study of Mus musculus with 3 samples.

Results

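The nuclear genes of the mitochondrial respiratory chain and the ATP synthase were read from 3 Affymetrix mouse expression arrays of back skin. Members were all probe sets whose gene symbol in the platform annotation starts with Ndufa, Ndufb, Ndufc, Ndufs, Ndufv, Uqcr, Cox4i, Cox5, Cox6, Cox7, Cox8 or Atp5, or is Sdha, Sdhb, Sdhc, Sdhd or Cyc1. This gave 190 of 45037 probe sets. Of these, 180 carry 1 gene and cover 91 of 18193 genes, and 10 carry several genes. The muscle isoforms Cox6a2, Cox7a1 and Cox8b, with 4 probe sets, were set against the other 88 genes. The choice went by gene symbol, and it was made with earlier results of these data known.

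Each array held pooled RNA (250 ng) of 1 group of male mice. The WT group comprised 5 C57BL/6J mice and the KO group 7 mice that lack interleukin-10, both fed an AIN-93-based diet. The KOE group comprised 6 such knockout mice fed that diet with 8% powdered eggshell membrane (pESM). Feeding lasted 28 weeks from an age of 4 weeks, and the knockout mice were bred from a cross of an interleukin-10-deficient line with C57BL/6J, so they lack interleukin-10 in every cell. The sources do not say which mice were pooled. Since each group has a single array, differences could not be set against any spread between replicates, no p-value is given, and each value describes a pool and not the mice in it.

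The deposited values are linear signal intensities, scaled so that the 2% trimmed mean is 500 on every array. Taken over all probe sets, the median was 116 in WT, 96.3 in KO and 108 in KOE. Il10 itself was under 40 in WT and gave 679.9 in KO and 401 in KOE. The sources do not say whether its probe set lies outside the altered part of the gene, so this signal does not check the labels. Of the tissue markers, all 6 measured genes of the epidermis and all 6 of dermal fibroblasts reached a signal of 40 on at least 1 array. The 9 genes of the growing hair follicle summed to 134143 in WT and to 752 and 611 in KO and KOE. Signals of different probe sets are not compared with each other, since each has its own probes. In pooled tissue RNA, fewer cells of a type and less RNA per cell cannot be told apart.

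The respiratory chain passes electrons from NADH and succinate to oxygen. Complex I and complex II feed electrons in, complex III hands them on by cytochrome c, and complex IV, cytochrome c oxidase, reduces oxygen. Complex V, the ATP synthase, uses the proton gradient that results. Most subunits are made in all cells with mitochondria, but a few small subunits of complex IV have isoforms made mainly in striated muscle and brown fat, among them the products of Cox6a2, Cox7a1 and Cox8b. Mouse back skin carries a thin sheet of skeletal muscle, the panniculus carnosus, below the dermis.

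The muscle isoforms were low in the KO pool, and the other chain genes were nearly level over the pools. Where several probe sets read a gene alone, the one with the highest mean signal stands for it. A gene was past the cut-off when 2 arrays differed by at least 1.5-fold and 1 or both reached 40. In KO vs. WT, 4 of the 89 chain genes that reached 40 were lower past this cut-off and none was higher. Of all 14495 genes that reached 40, 14.5% were lower and 10.9% were higher. The 4 genes were Cox6a2, Cox7a1, Cox8b and Ndufaf4, an assembly factor of complex I. In KOE vs. KO, 4 of 90 chain genes were higher and none was lower, against 10.9% higher and 5.33% lower among 14594 genes. These were Cox6a2, Cox7a1, Cox8b and Ndufb4. In KOE vs. WT, 2 of 90 were higher, Cox6a2 and Ndufb4, and none was lower, against 12.4% and 10.4% of 14784 genes. The KO array enters the first 2 comparisons, so a chance deviation of that array would move them in opposite directions.

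Without the muscle isoforms, the median log2 ratio of the chain genes was −0.01 in KO vs. WT, −0.04 in KOE vs. KO and −0.04 in KOE vs. WT. The medians of all genes that reached 40 were 0.01, 0.02 and 0.05. The median of the chain genes changes sign with the scaling of the arrays. It was 0.26 in KO vs. WT when the arrays were scaled to a common median, which raised the median of all genes to 0.29, and −0.12 after cyclic loess normalization, where the median of all genes was 0.02. The middle part of the chain genes, from the lower to the upper quartile, lay between −0.08 and 0.12 in KO vs. WT, and that of all genes between −0.30 and 0.28. Many of all genes have weaker signals than the chain genes. With at least 1000 in both arrays, the quartiles were −0.05 and 0.13 for the chain genes and −0.08 and 0.26 for all genes. In KOE vs. KO they were then −0.12 and 0.04, against −0.15 and 0.08, and thus close.

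**Figure D1:**
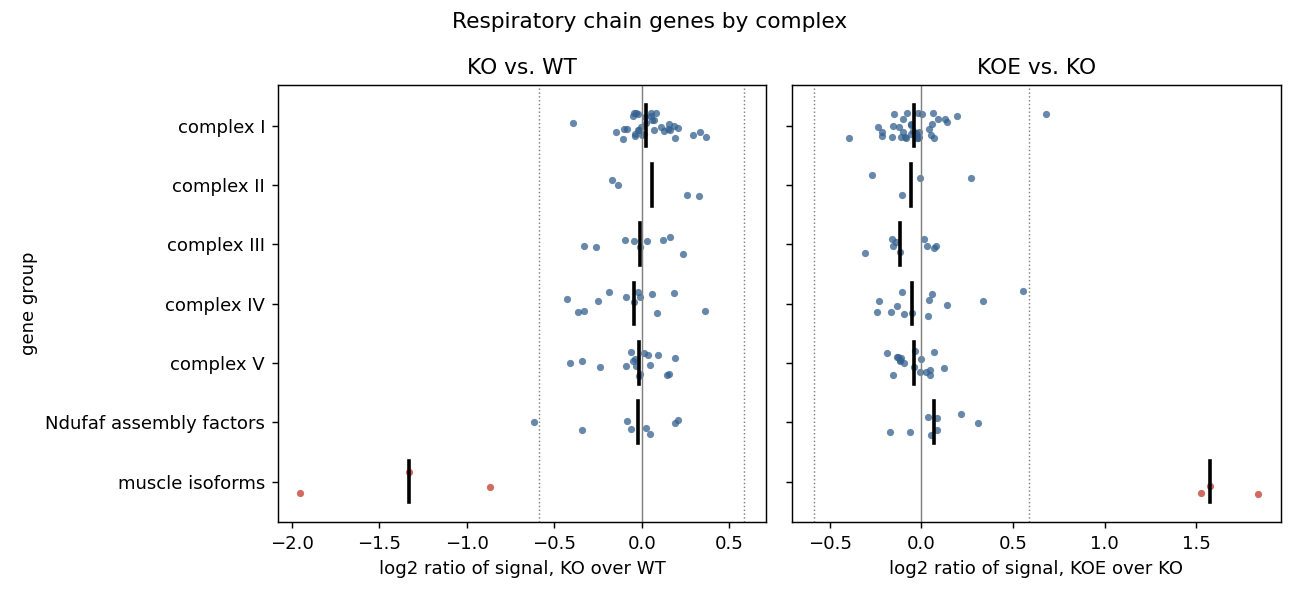
Log2 ratio of signal of each respiratory chain gene in KO vs. WT (left) and KOE vs. KO (right), with 1 row per complex and 1 array of pooled RNA per group. Points are genes with a signal of at least 40 on at least 1 of the arrays compared, black bars are row medians and dotted lines mark 1.5-fold; the muscle isoforms (red) lie apart at a median of −1.33 and 1.58, while the other rows have medians between −0.12 and 0.07.

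Cox7a1, the muscle isoform of subunit VIIa, gave 179.5 in WT, 46.4 in KO and 166 in KOE. The KO value was the low one and lay close to the lower limit of 40. It was 3.87-fold lower than in WT, and the KOE value was 3.58-fold higher than in KO. Cox8b, the muscle isoform of subunit VIII, had 1058 in WT, 420.0 in KO and 1211 in KOE. It was 2.52-fold lower in KO than in WT and 2.88-fold higher in KOE than in KO. Cox6a2, the muscle isoform of subunit VIa, had 474 in WT, 259 in KO and 774 in KOE. The KOE signal was thus the highest, 2.98-fold that of KO and 1.63-fold that of WT, and the KO signal was 1.83-fold lower than that of WT. Against WT, the KOE ratio was 0.92 for Cox7a1 and 1.14 for Cox8b, both under the cut-off.

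These 3 genes had the lowest ratios of the 89 chain genes in KO vs. WT and the highest ratios of the 90 in KOE vs. KO. Under every scaling tried (the deposited one, a common median, quantiles and cyclic loess) all 3 passed the cut-off downwards in KO vs. WT and upwards in KOE vs. KO, with ratios of KOE to KO between 2.58 and 3.58. The second probe set of Cox6a2, which by its name suffix may also read related transcripts, differed from this. It read 81.2 in WT, 78.0 in KO and 156 in KOE. The ratio of KOE to KO was 2.00 and that of KO to WT was 0.96. With both probe sets averaged on the log2 scale, Cox6a2 was 1.38-fold lower in KO than in WT, which is under the cut-off.

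The general isoforms of the same families stayed under the cut-off at their strongest probe sets. Cox6a1, the isoform of subunit VIa in most tissues, had 18340.3 in WT, 19499.6 in KO and 18839 in KOE. Cox7a2, the general isoform of subunit VIIa, had 17881, 17312 and 16079.5. Cox8a, the general isoform of subunit VIII, had 8572, 8435 and 7511. The highest signal was at most 1.14-fold the lowest for each of the 3. All probe sets of the muscle isoforms were under 1000 on 1 array or more. In KO vs. WT, 24.4% of all such weaker probe sets were lower and 11.6% higher, against 2.81% and 6.48% at 1000 or more on all arrays. In KOE vs. KO, 4644 of 27636 weaker ones were higher and 1875 lower, against 1.05% and 0.91% of the strong ones. Isoform type and signal strength thus go together here. With all probe sets of a gene averaged on the log2 scale, Cox8a passed the cut-off downwards, at −1.23 in KO vs. WT and −1.10 in KOE vs. WT, through its weak probe set, with 74.8 in WT, 5.76 in KO and 9.26 in KOE. The log2 ratio of KO to WT of the muscle isoform minus that of the family member was −0.96 for Cox6a2 and Cox6a1, −1.91 for Cox7a1 and Cox7a2, and −1.31 for Cox8b and Cox8a. In KOE vs. KO these differences were 1.63, 1.95 and 1.69. Cox7a2l, a further gene of the COX7A family, had 6520 in WT, 8362 in KO and 7082 in KOE, a ratio of 1.28 in KO vs. WT that passed the cut-off after median scaling.

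**Figure D2:**
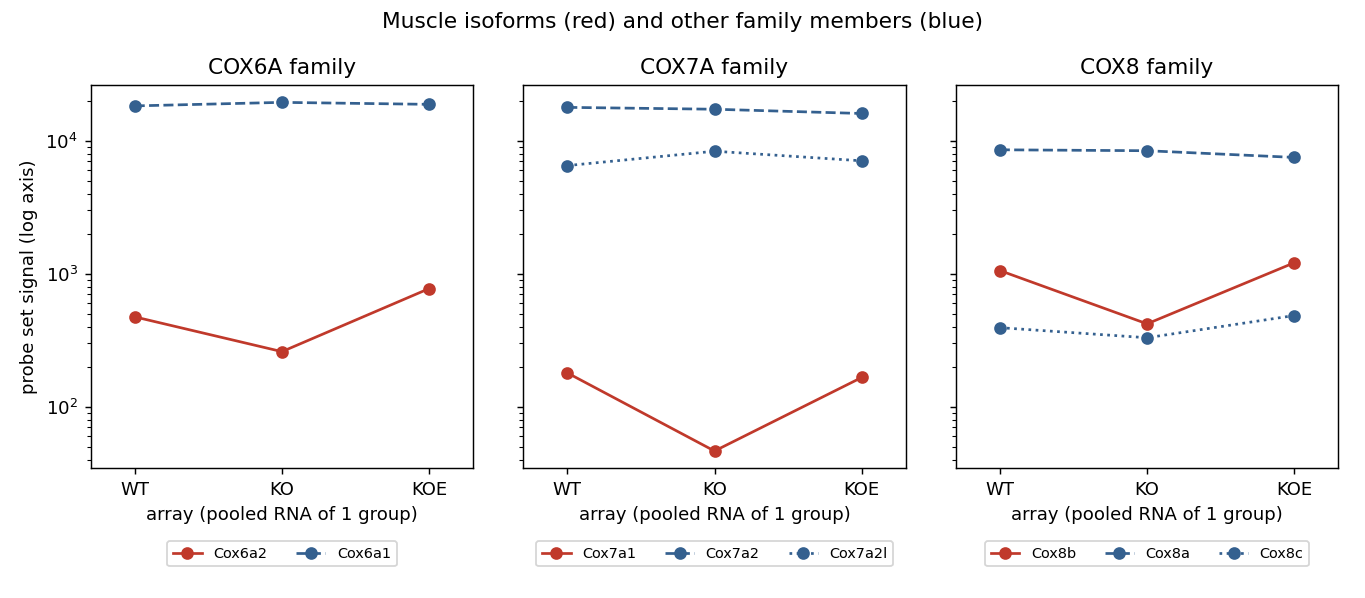
Probe set signal (log axis) on the WT, KO and KOE arrays of the muscle isoforms (red) and of other members of the same families (blue), 1 array of pooled RNA per group. The lines join arrays only to guide the eye; Cox6a2, Cox7a1 and Cox8b have their lowest point in KO, at 259, 46.4 and 420.0, while Cox6a1, Cox7a2 and Cox8a are nearly flat.

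The 250 bases before the start site of the genes in these families are shown because members of 1 family differed on the arrays while they encode versions of the same subunit. The sequences are from RefSeq (GRCm38.p6), and the promoter table used here matched 74 of the 91 genes, Cox7a1 and Cox8b among them. Cox6a2 is named only. Capitals mark matches on either strand to 4 motifs, the core GCGCANGC of nuclear respiratory factor 1 (NRF-1), the ETS core CCGGAAG, the E-box CANNTG and the CCAAT box.
Cox7a1 (chr7:30183921-30184170, plus strand): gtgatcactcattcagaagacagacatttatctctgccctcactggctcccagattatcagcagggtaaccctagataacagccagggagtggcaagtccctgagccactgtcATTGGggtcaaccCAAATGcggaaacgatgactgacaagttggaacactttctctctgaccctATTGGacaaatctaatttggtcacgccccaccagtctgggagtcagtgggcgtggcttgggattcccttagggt
Cox7a2 (chr9:79759854-79760103, minus strand): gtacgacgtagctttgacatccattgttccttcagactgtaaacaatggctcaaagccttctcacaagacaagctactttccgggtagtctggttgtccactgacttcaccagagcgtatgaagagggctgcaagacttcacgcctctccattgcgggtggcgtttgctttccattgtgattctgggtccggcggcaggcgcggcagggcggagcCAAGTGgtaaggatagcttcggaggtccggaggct
Cox8b (chr7:140900447-140900696, minus strand): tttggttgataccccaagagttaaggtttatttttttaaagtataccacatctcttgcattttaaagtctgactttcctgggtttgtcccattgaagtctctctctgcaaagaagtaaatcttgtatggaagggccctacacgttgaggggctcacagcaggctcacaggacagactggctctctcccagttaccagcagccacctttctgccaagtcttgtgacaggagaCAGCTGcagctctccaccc
Cox8a (chr19:7217617-7217866, minus strand): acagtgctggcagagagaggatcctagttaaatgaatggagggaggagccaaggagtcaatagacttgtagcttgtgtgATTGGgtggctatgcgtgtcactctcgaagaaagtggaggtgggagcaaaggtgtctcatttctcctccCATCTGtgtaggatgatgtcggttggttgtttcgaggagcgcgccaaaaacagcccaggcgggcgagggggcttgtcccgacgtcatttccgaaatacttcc
Cox6a1 (chr5:115348959-115349208, minus strand): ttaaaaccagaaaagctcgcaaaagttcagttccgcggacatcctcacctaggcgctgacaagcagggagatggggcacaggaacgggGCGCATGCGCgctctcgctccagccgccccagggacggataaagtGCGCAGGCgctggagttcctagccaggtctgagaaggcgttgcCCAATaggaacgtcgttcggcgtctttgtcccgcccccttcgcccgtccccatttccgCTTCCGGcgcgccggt

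Of the promoters shown, only that of Cox6a1, a general isoform, holds the NRF-1 and ETS letters. Cox8b has the E-box form CAGCTG, which the CANNTG search also finds, from 19 to 14 bases before its start. Among the 72 chain genes other than the muscle isoforms with a promoter, 23.6% held the NRF-1 core and 19.4% the ETS core, against 9.38% and 7.83% of all 27025 genes with a promoter. The E-box CANNTG was found in 65.3% and 69.3%, its form CAGCTG in 6.94% and 14.7%, and the CCAAT box in 43.1% and 37.5%. A match is a run of letters and not a measured binding site, and these shares do not bear on the differences between the arrays.

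Complex I, the NADH dehydrogenase, had 36 genes read from the arrays. None was past the cut-off in KO vs. WT, and the ratios lay between 0.76 and 1.29. Ndufa1, a membrane arm subunit, had 11566 in WT, 10900.1 in KO and 10813 in KOE. Ndufs1, the large iron-sulfur subunit, had 2590 in WT, 2401 in KO and 2224 in KOE. The core subunit genes Ndufv1 and Ndufs7 had 3801 and 2980 in WT, and 3939 and 3134 in KO. Ndufa3 and Ndufb11, also of the membrane arm, had 10007 and 9034 in WT, 9764 and 11051 in KO, and 9602 and 10145 in KOE. Ndufv2, which carries an iron-sulfur cluster, had 6307 in WT, 6897 in KO and 5849 in KOE. Ndufb1 gave a weak signal on this array type, with 218 in WT, 197 in KO and 176 in KOE.

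Ndufa6, an accessory subunit, had 5496 in WT, 7098 in KO and 6106 in KOE, a ratio of 1.29 in KO vs. WT. Ndufa4l2, a relative of Ndufa4 that is induced in low oxygen, had 1004 in WT, 1264 in KO and 1446 in KOE. The KOE signal was the highest, at 1.44-fold that of WT. Both were past the cut-off in KO vs. WT after median scaling. Ndufa4, whose product is now counted with complex IV, had 8197 in WT, 9473 in KO and 7212 in KOE. Its ratio of 0.76 was the lowest of complex I in KOE vs. KO. Ndufs8, an iron-sulfur subunit, had the lowest ratio in KO vs. WT, with 5889 in WT, 4478 in KO and 4657 in KOE. Its 6 probe sets did not give 1 direction in KO vs. WT, since their ratios ran from 0.63 for the weakest, past the cut-off, to 1.04.

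Ndufb4 was past the cut-off in KOE vs. KO only through weak signals. The 1 probe set with this gene alone had 26.4 in WT, 35.2 in KO and 56.4 in KOE. In KOE vs. KO the gene was under the cut-off when signals below 40 were set to 40 and after each of the 3 scalings. In KOE vs. WT it stayed past the cut-off after the 3 scalings, at log2 ratios of 1.00 to 1.21, and was under it when signals below 40 were set to 40. A pair of probe sets that Ndufb4 shares with Ndufb4b and Ndufb4c had signals of 5372 and 5782 in WT, 5679 and 6551 in KO, and 5220 and 6192 in KOE. Of the 10 probe sets with several genes, the 6 with at least 1000 on all arrays stayed within 1.16-fold. Ndufa11 and Ndufs6 were read only by such probe sets.

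The 8 Ndufaf genes fit the naming rule but encode factors that assemble complex I and are not part of it. Ndufaf4 had 748 in WT, 489 in KO and 506 in KOE, a ratio of 0.65 in KO vs. WT and of 1.04 in KOE vs. KO. Its second probe set had 625 in WT, 463 in KO and 597 in KOE, with a ratio of 0.74 in KO vs. WT that is under the cut-off. Quantile normalization and scaling to a common median also brought Ndufaf4 under the cut-off. The other 7 lay between 0.79 and 1.16 in KO vs. WT, with Ndufaf6 lowest and Ndufaf7 highest. Ndufaf2 had the highest ratio in KOE vs. KO, at 1.24, with 430 in KO and 533 in KOE.

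Complex II, the succinate dehydrogenase of the citric acid cycle, was read by all 4 of its genes. Sdha, the flavoprotein that oxidizes succinate, had 3387 in WT, 3009 in KO and 3636 in KOE. Sdhb, the iron-sulfur subunit, had 5591, 5083 and 4731. The membrane anchors Sdhc and Sdhd had 2457 and 1841 in WT, 2944 and 2310.1 in KO, and 2930.2 and 1915 in KOE. At these probe sets no gene reached the cut-off in any comparison. All 4 had at least 1000 on every array, and the small shares of all genes of that strength past the cut-off are given below. The anchors had no settled direction in KO vs. WT, as their second probe sets had ratios of 0.85 for Sdhc and 0.81 for Sdhd and were thus lower in KO. Sdhd passed the cut-off in KO vs. WT after median scaling.

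Complex III, which passes electrons to cytochrome c, had 9 genes with ratios of 0.80 to 1.18 in KO vs. WT. Uqcrb had 21318 in WT, 21175 in KO and 19534 in KOE. Cyc1, cytochrome c1, varied least, with 4339, 4203 and 4244. Uqcr10, a small subunit, was lowest in both comparisons with WT, at 4361 in WT, 3468 in KO and 3116 in KOE. Its KOE ratio to WT was 0.71. Its other 2 probe sets had ratios of 1.04 and 1.35 in KO vs. WT, and the last of these, with 667 in WT, 902 in KO and 402 in KOE, was past the cut-off downwards in both comparisons of KOE. Uqcrfs1, the Rieske iron-sulfur protein, was highest in KO vs. WT, with 4182 in WT and 4917 in KO. Uqcrh, the hinge protein, was lowest in KOE vs. KO, with 12177 in WT, 13647 in KO and 11042 in KOE. The core proteins Uqcrc1 and Uqcrc2 had 4499.9 and 5819.6 in WT, 4897 and 5949.6 in KO, and 5173 and 5325 in KOE, so they differed in direction between KO and KOE. Uqcrq had 5261, 4388 and 4596.

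Complex IV outside the muscle isoforms had 14 genes, of which Cox7b2 was under 40 on every array. The other 13 had ratios of 0.74 to 1.28 in KO vs. WT and 0.85 to 1.47 in KOE vs. KO. Cox4i1, the general isoform of subunit IV, had 10873.5 in WT, 12361 in KO and 12698 in KOE. Cox4i2, the isoform of subunit IV found in lung, had 90.5, 70.3 and 72.2. Cox5a had 9259 in WT, 7362 in KO and 8100.4 in KOE. All 3 of its probe sets were lower in KO than in WT, with ratios of 0.80, 0.82 and 0.88. The isoforms known from testis, Cox6b2 and Cox8c, had 186 and 393 in WT, 138 and 330.1 in KO, and 175 and 485 in KOE. Both had their lowest value in KO, and the KOE ratio of Cox8c to KO, 1.47, was just under the cut-off. The direction of Cox8c in KO vs. WT differed between its probe sets, as the second had 50.0 in WT, 113 in KO and 123 in KOE. Cox6c, with a single isoform in mammals, had 16180.0 in WT, 16825 in KO and 15729 in KOE. Cox7c gave only 201, 189 and 161.

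Complex V had 17 genes, all with at least 1000 on every array, and ratios of 0.75 to 1.14 in KO vs. WT and of 0.88 to 1.09 in KOE vs. KO. Atp5a1 and Atp5b, which encode subunits of the catalytic head, had 8949 and 14870.4 in WT, 9532 and 14234 in KO, and 9500.0 and 14903 in KOE. Atp5g3, which encodes the proton-carrying ring subunit, had 14348, 13999 and 13904. Its relatives Atp5g1 and Atp5g2, which encode the same mature ring subunit, had 3032 and 5999 in WT, 3114 and 6691 in KO, and 3223 and 5883 in KOE. The lowest ratios in KO vs. WT were those of the small membrane subunit genes Atp5md and Atp5mpl. Atp5md had 8861 in WT, 6677 in KO and 6912 in KOE. Atp5mpl had 6584, 5193 and 4812. Both were lower in the 2 knockout pools than in WT, at ratios of 0.73 to 0.79, and neither reached the cut-off. The highest ratio in KO vs. WT was that of Atp5d, the delta subunit of the central stalk, with 8335 in WT, 9523 in KO and 8728 in KOE. Atp5pb, of the peripheral stalk, differed by at most 1.02-fold, with 13675, 13552 and 13793.

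Outside the muscle isoforms, the chain genes with strong signals stayed under the cut-off. Among 74 chain genes with at least 1000 on all arrays, none was past the cut-off in any comparison, and the highest signal of a gene was 1.02- to 1.44-fold its lowest, with a median of 1.11. With at least 1000 in both arrays compared, the shares past the cut-off over all genes were 6.77% higher and 2.62% lower in KO vs. WT, 0.897% and 0.943% in KOE vs. KO, and 4.7% and 1.84% in KOE vs. WT. The chain genes that met this limit numbered 74, 74 and 75, with none past the cut-off in either direction. The 75 include the muscle isoform Cox8b, which reached 1000 in WT and KOE but not in KO. Over all 4069 genes with at least 1000 on all arrays, the median of the highest over the lowest signal was 1.19.

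By probe set, 126 with 1 gene other than the muscle isoforms had at least 1000 on all arrays, with none past the cut-off in KO vs. WT and 1 in KOE vs. KO. Over all 6264 probe sets of this strength, 6.48% were higher and 2.81% lower in KO vs. WT, and 1.05% were higher and 0.91% lower in KOE vs. KO. The 1 chain probe set was the second probe set of Atp5o, with 2009 in WT, 1493 in KO and 2257 in KOE, while the first had 7569, 7414 and 6756. Of 43 weaker probe sets that reached 40 on some array, 41 did so in KO or WT, and of these 9 were lower and 2 were higher in KO vs. WT. Over all 26030 probe sets of this class the shares were 24.4% lower and 11.6% higher. Examples are the weak probe set of Cox8a given above and the third of Atp5j2, with 324 in WT and 139.7 in KO. The strongest probe sets of both genes had ratios of 0.98 and 0.99. Different probe sets of 1 chain gene differed in the log2 ratio of KO to WT with an SD of 0.30 at a limit of 40 on all arrays (126 probe sets of 48 genes) and of 0.12 at a limit of 1000 (88 probe sets of 36 genes).

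**Figure D3:**
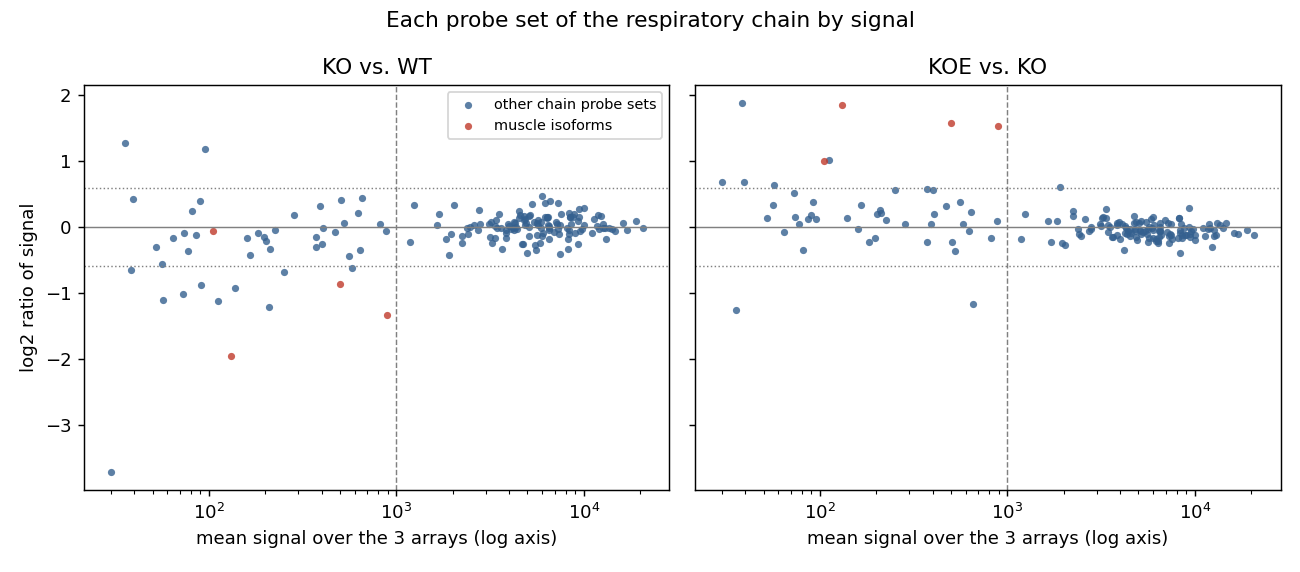
Log2 ratio of signal of every respiratory chain probe set with 1 gene that reached 40 on at least 1 array in KO vs. WT (left) and KOE vs. KO (right), against its mean signal over the 3 arrays (log axis). Dotted lines mark 1.5-fold and the dashed line a signal of 1000; the scatter is narrow to the right of it, and the probe sets of the muscle isoforms (red) lie to its left, as do the probe sets of other genes (blue) past the dotted lines, except 1 of Atp5o in KOE vs. KO at a ratio of 1.51.

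Most markers of skeletal muscle moved in the same directions as the muscle isoforms. Of 24 such genes, 21 reached 40 in KO vs. WT, of which 15 were lower past the cut-off and 2 were higher, with a median log2 ratio of −1.39. The higher ones were Myh2, a myosin of fast oxidative fibers, with 178 in WT and 312 in KO, and the slow troponin gene Tnnt1, with 9.34 and 50.9. In KOE vs. KO, 17 of 20 were higher and none was lower, with a median of 1.95. The medians of the muscle isoforms were −1.33 and 1.58. In KOE vs. WT, 8 of 20 markers were higher and 1 was lower, with a median of 0.42, and the median of the isoforms was 0.19. The 24 markers summed to 37607 in WT, 13019 in KO and 52363 in KOE. Ckm, the muscle creatine kinase, had 1942 in WT, 741 in KO and 2916 in KOE. Myl1, a fast myosin light chain, had 4753, 411 and 5735. Of the slow-fiber markers, Myh7, Myl2 and Tnni1 were under 40 on all arrays. Whether the muscle content of the pools accounts for the isoforms was not tested.

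By the methods, the fat layer of the dermis had been taken off before RNA was extracted. All 6 measured genes of white adipocytes passed the cut-off, downwards in KO vs. WT and upwards in KOE vs. KO, with medians of −2.12 and 1.38. They summed to 24714 in WT, 7508 in KO and 15521 in KOE. Adipoq, an adipocyte hormone gene, had 2194 in WT, 296 in KO and 1289 in KOE. In KOE vs. WT, 5 of the 6 were lower and none was higher, with a median of −0.70. Their part in the isoform values was not tested. Of 9 genes of brown adipocytes, 6 reached 40 in KO vs. WT. Their median was 0.31, and the potassium channel gene Kcnk3 was lower, with 51.7 in WT and 24.3 in KO. In KOE vs. KO 5 reached 40 and none was past the cut-off, and the median was −0.09. In KOE vs. WT Prdm16, a regulator of brown fat, was higher and Kcnk3 lower. Ucp1, the uncoupling protein that defines brown fat, had 2.35 in WT, 1.59 in KO and 3.02 in KOE. The summed signal of this list was 11387, 14243 and 11555. Most of it came from Cidea, which sebaceous glands also express, with 5970.4, 6824 and 5902, and from Elovl3, with 3858, 5412 and 3681.

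Other tissue markers also differed between the arrays, and their part in the isoform values was not tested. In KO vs. WT all 5 smooth muscle genes passed the cut-off upwards and their median was 0.67. In KOE vs. KO none passed it and the median was 0.11. Acta2, the smooth muscle actin, had 9096 in WT, 14036 in KO and 15283 in KOE. Of the 6 dermal fibroblast genes, Col1a1, a chain of type I collagen, was lowest in KO as the muscle isoforms were, with 16664 in WT, 5880.4 in KO and 16038 in KOE. Col3a1, of type III collagen, had 33961, 23146 and 33914.5, under the cut-off. The fibroblast medians were −0.20 in KO vs. WT and 0.14 in KOE vs. KO. No epidermal gene was past the cut-off, with medians of 0.24 and 0.06.

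Few genes of other mitochondrial lists passed the cut-off. Over all genes that reached 40, 10.9% were higher and 14.5% lower in KO vs. WT, and 10.9% and 5.33% in KOE vs. KO. With at least 1000 in both arrays, the shares were 6.77% and 2.62%, and 0.897% and 0.943%. Among such strong signals, few genes of any kind thus passed it in KOE vs. KO. Of 76 genes of mitochondrial ribosomal proteins, none was past the cut-off in KO vs. WT or in KOE vs. KO, with medians of 0.03 and −0.05. None of 15 genes of the citric acid cycle and pyruvate dehydrogenase was past it either, with medians of 0.08 and −0.05. Cs, which encodes citrate synthase, had 5321 in WT, 5692 in KO and 5744 in KOE. Of 13 genes of mitochondrial fatty acid oxidation, Cpt1a, which brings fatty acids into mitochondria, was lower in KO vs. WT, with 1712 in WT and 1138 in KO, and none was past the cut-off in KOE vs. KO. Of 13 carrier genes, Ckmt2 and Ucp3 were lower in KO vs. WT and Ckmt2 was higher in KOE vs. KO. Ckmt2, the mitochondrial creatine kinase of striated muscle, had 210.1 in WT, 72.7 in KO and 309 in KOE. Cycs, cytochrome c, had 7652, 6729 and 6561.

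Regulators and assembly factors gave no common direction. Of 15 regulators of mitochondrial biogenesis that reached 40, Polg2 was higher and Nrf1 was lower in KO vs. WT, and none was past the cut-off in KOE vs. KO. Nrf1, the factor whose core was searched above, had 405 in WT, 268 in KO and 245 in KOE. Tfam, whose product packs mitochondrial DNA and helps to start its transcription, had 1185 in WT, 1200.1 in KO and 1260.3 in KOE. Polg2, a subunit of the mitochondrial DNA polymerase, had 299 in WT, 450.3 in KO and 333 in KOE, a log2 ratio of 0.59 in KO vs. WT, just past the cut-off. Of 35 assembly factors other than the Ndufaf genes, Cox15 and Coa4 were higher and Ttc19 and Coa7 lower in KO vs. WT, and Ttc19 was higher and Coa4 lower in KOE vs. KO. Ttc19, an assembly factor of complex III, had 283 in WT, 93.7 in KO and 148 in KOE.

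Of 15 glycolysis genes, Eno3 and Pgam2 were lower and Pfkl higher in KO vs. WT, and Eno3, Pgam2 and Pfkm were higher in KOE vs. KO. Eno3, Pgam2 and Pfkm are forms of the enzymes that skeletal muscle makes. Eno3 had 1283 in WT, 330.3 in KO and 1392 in KOE. Pgam2 had 506, 98.2 and 518. The median of the list was 0.03 and 0.08. Aldoa, an aldolase of muscle and many other tissues, had 13377, 10659 and 13375.

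**Figure D4:**
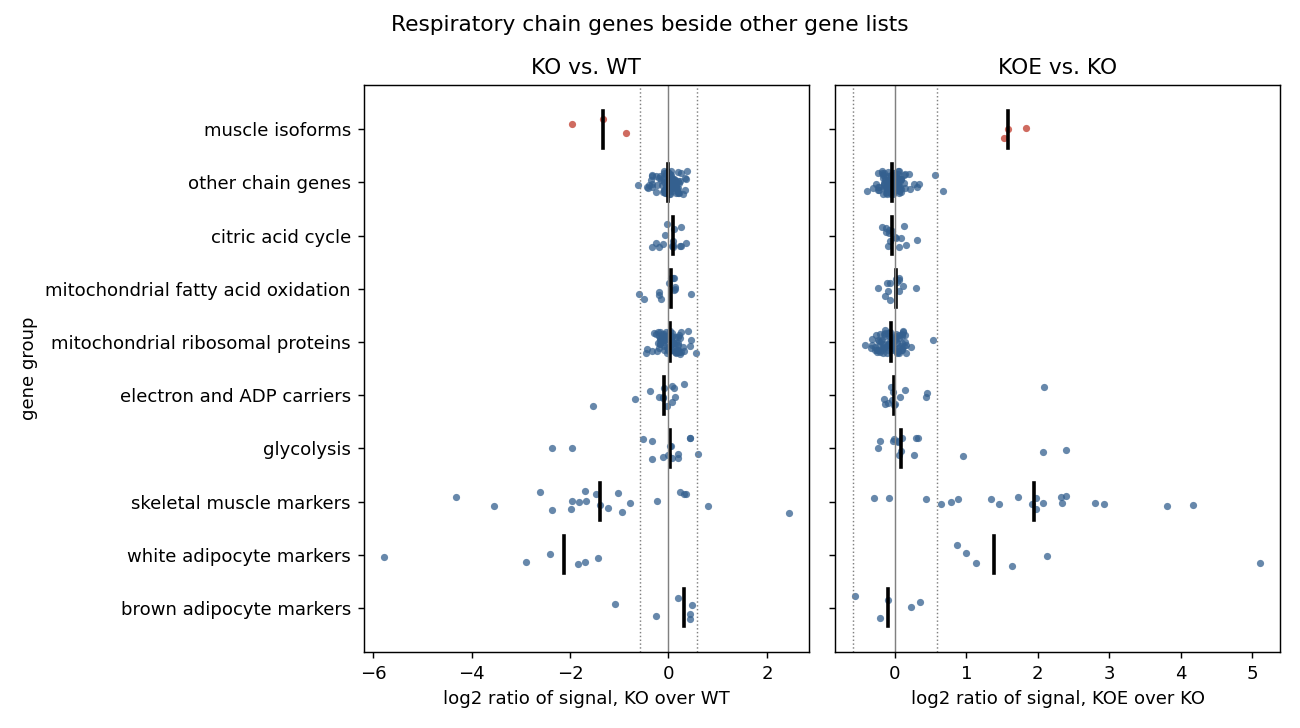
Log2 ratio of signal of the muscle isoforms (red), the other respiratory chain genes and other gene lists (blue) in KO vs. WT (left) and KOE vs. KO (right), with 1 point per gene that reached 40 on at least 1 of the arrays compared. Black bars are medians and dotted lines mark 1.5-fold; the muscle isoforms lie with the skeletal muscle markers (medians of −1.39 and 1.95) and white adipocyte markers (−2.12 and 1.38), and the remaining rows have medians between −0.10 and 0.31.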

How the data were processed

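Pooled back-skin RNA of WT, KO and KOE mice was measured on 1 array each. The values deposited by the authors are linear intensity signals that they made with Affymetrix analysis software. Their 2% trimmed mean was found to be 500 on every array. A gene under 40 in both arrays compared was left out, and a signal under 40 in 1 of them was used as it stands. Of 45101 probe sets, 64 controls were left out, 34945 have 1 gene in the platform annotation, 932 several and 9160 none.

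Ratios were taken from the deposited signals. The cut-off (1.5-fold, signal of at least 40) follows the study's methods, where it is not stated whether both arrays have to reach 40. Named genes are the isoform families, in each complex the 3 genes of highest mean signal and the 2 highest and 2 lowest ratios in KO vs. WT and in KOE vs. KO, members past the cut-off, and in each list the 3 of highest signal, the 2 of largest difference in KOE vs. KO and defining markers. Il10, Ndufs1, Ndufs7, Ndufv1, Cyc1, Cox5a, Atp5a1, Atp5g1, Atp5j2, Atp5o, Cycs, Cpt1a, Nrf1, Cox15, Coa7, Pfkl, Pfkm, Kcnk3, Prdm16, Myh1, Myh2, Actn2, Tnnc1 and Tnnt1 were named after their values were seen. The members and lists were chosen with earlier results of these data known. The rule for the cut-off was run on simulated arrays with known large differences. That checks the code and not the calls made from these 3 arrays. Alternatives changed the scaling (common median, quantiles, or limma's cyclic loess at 3 iterations and span 0.7), signal and fold limits, and the joining of probe sets. Python 3.11.15, numpy 2.4.6, pandas 2.3.3, matplotlib 3.10.9, R 4.3.3 and limma 3.58.1 were used.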

Additional observations from a re-analysis of the deposited data

How the results depend on the processing

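The muscle isoforms kept their direction in KO vs. WT and KOE vs. KO under all alternatives that could read them, but Cox6a2 in KO vs. WT fell under the cut-off with a fold limit of 2 and with all probe sets averaged. With at least 1000 in both arrays no muscle isoform was compared with KO, and the chain genes lower in KO vs. WT, higher in KOE vs. KO and higher in KOE vs. WT numbered 0, 0 and 0, against 4, 4 and 2. After median scaling 4 genes were higher in KO vs. WT, against 0, while the count over all genes rose from 1582 to 3381. These were Cox7a2l, Ndufa4l2, Ndufa6 and Sdhd. In KOE vs. WT 3 were then higher, against 2, with Ndufa4l2 added. The medians without the muscle isoforms then became 0.26 in KO vs. WT, turning their sign, −0.20 in KOE vs. KO and 0.073 in KOE vs. WT, also turning it, while those of all genes became 0.29, −0.14 and 0.16. After cyclic loess normalization they were −0.12 in KO vs. WT and −0.14 in KOE vs. WT. With a fold limit of 2, 2 genes were lower in KO vs. WT and 1 was higher in KOE vs. WT, while the counts over all genes were 1125 and 715. With 40 required in both arrays, or with signals under 40 set to 40, 1 gene was higher in KOE vs. WT. The counts over all genes were then 1140 and 1391. With all probe sets of a gene averaged, 4 genes were lower in KO vs. WT as before, but Cox8a (−1.23) and Atp5g2 (−0.82) took the place of Cox6a2 and Ndufaf4, 7 genes were higher and 1 was lower in KOE vs. KO, and 4 were higher and 1 was lower in KOE vs. WT. That average gives every probe set the same weight, and the added genes, Atp5g1, Atp5g2, Uqcrq and Ndufb9 in KOE vs. KO, each have at least 1 probe set that is under 40 on 1 array or more. Over all genes it gave 2229 lower in KO vs. WT, 1698 higher and 861 lower in KOE vs. KO, and 1863 and 1623 in KOE vs. WT. The other counts moved by less than 1.5-fold and the other medians by less than 0.1. No paired analysis was possible because each group has 1 array. For the same reason no replicate could be left out.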
